A study of Mus musculus with 37 samples.

Results

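The regions described here are stretches of open chromatin that held an ATAC-seq peak in every one of 6 libraries of mouse germinal vesicle (GV) oocytes. ATAC-seq uses a transposase to cut DNA that is not covered by nucleosomes, and a peak is a place where more sequenced fragments pile up than the library's background would give. Peaks of the 6 libraries were merged where they shared at least 1 bp, and a merged region on chromosomes 1 to 19 was kept when it held at least 1 peak from each library. Of 178543 merged regions on these chromosomes, 1770 (0.991%) met this rule. The regions were thus chosen by the presence of peaks, and their fold enrichment is given below as a description.

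The libraries came from the CabZ line, in which the Cre recombinase under the Zp3 promoter deletes a floxed Cabin1 allele in growing oocytes. There were 3 libraries (A to C) from CabZ Het oocytes, which keep 1 functional Cabin1 allele, and 3 (A to C) from CabZ KO oocytes, which lose both. Each library held about 100 GV oocytes pooled from C57BL/6 females primed with PMSG, and both genotypes carried Zp3-Cre. The RNA-seq libraries used below held 10 pooled oocytes or embryos by the study's methods (the sample records speak of individual cells), with 4 libraries per group. The groups were GV oocytes of the CabZ line (Het, KO), 2-cell embryos of the same line (Het, KO), and GV oocytes of the ZH line (Het, KO), which carries Zp3-Cre and a floxed Hira allele. A further 4 libraries were of 2-cell embryos from GFP RNA-injected wild-type oocytes and 3 of 2-cell embryos from Zscan4d RNA-injected wild-type oocytes. By the paper's scheme the injected GV oocytes were matured in vitro and activated without sperm, which gives parthenogenetic embryos. The labels do not say which animals, litters or days the libraries came from, so that p-values measure the spread between these libraries only.

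The Hira complex, made of Hira, Cabin1 and Ubn1, places the histone variant H3.3 into chromatin outside DNA replication. A fully grown GV oocyte has largely stopped transcribing and lives on stored maternal RNA, and its chromatin holds H3.3 laid down during growth. In most cells open chromatin is found at promoters, where general factors such as NF-Y (on the letters CCAAT) and Sp1 (on the GC box) bind, and at distal enhancers. In oocytes the basic helix-loop-helix factors Figla, Sohlh1 and Sohlh2 bind E-boxes, short sites that start with CA and end with TG, near genes of the oocyte programme.

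The sequences below are shown because the results turn on the E-boxes and CCAAT boxes in them. All are GRCm38 reference sequence from RefSeq, 5′ to 3′, and none overlaps an annotated exon. The first 4 are the 120 bases upstream of the transcription start site (TSS) of oocyte genes that had a region of all 6 libraries within 500 bp, taken as the genes with the highest fold enrichment in their weakest library. Zp3 (chr5:135979979-135980098, plus strand) encodes the zona pellucida sperm receptor, Tle6 (chr10:81601074-81601193, minus strand) and Padi6 (chr4:140742644-140742763, minus strand) encode members of the subcortical maternal machinery of the egg, and Zar1l (chr5:150518165-150518284, minus strand) encodes a relative of zygote arrest 1. Capitals mark the E-box CAGCTG or CACCTG on either strand, of which Zar1l had none.
Zp3: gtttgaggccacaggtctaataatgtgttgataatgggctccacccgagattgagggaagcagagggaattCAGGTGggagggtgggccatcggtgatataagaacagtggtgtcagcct
Tle6: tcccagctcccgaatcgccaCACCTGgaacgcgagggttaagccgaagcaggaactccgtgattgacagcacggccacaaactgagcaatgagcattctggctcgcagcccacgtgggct
Padi6: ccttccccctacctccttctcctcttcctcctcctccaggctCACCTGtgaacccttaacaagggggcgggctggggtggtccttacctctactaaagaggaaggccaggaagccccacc
Zar1l: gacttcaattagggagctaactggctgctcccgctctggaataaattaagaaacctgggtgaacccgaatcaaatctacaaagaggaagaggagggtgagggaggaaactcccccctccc

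The next 3 are 300-base stretches around the strongest summit of regions away from a TSS, and are shown because they held the most copies of CAGCTG, which the capitals mark. They lie near Med13l (chr5:118776484-118776783), Slc12a7 (chr13:73777739-73778038) and Edem3 (chr1:151710471-151710770), all given on the plus strand, and hold 5, 4 and 3 copies. In the first the copies sit in a short tandem repeat.
region near Med13l: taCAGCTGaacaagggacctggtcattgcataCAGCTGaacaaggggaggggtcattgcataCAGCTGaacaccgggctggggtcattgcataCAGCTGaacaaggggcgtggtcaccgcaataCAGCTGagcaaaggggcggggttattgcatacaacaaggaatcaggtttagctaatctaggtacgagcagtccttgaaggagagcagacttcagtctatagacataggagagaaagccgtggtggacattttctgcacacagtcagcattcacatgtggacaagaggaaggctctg
region near Slc12a7: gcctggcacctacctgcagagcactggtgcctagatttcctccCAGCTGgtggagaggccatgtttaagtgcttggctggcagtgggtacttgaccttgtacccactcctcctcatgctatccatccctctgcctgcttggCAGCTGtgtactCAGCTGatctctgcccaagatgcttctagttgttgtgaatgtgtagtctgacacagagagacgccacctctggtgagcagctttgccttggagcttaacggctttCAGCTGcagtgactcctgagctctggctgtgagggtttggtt
region near Edem3: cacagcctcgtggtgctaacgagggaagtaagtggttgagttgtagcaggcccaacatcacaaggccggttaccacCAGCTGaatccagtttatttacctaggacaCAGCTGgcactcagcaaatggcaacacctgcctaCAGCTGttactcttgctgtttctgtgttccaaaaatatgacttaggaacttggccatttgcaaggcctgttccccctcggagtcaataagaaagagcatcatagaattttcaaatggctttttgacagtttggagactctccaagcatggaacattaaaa

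The last 2 are the 120 bases upstream of 3110082I17Rik (chr5:139460528-139460647, minus strand) and Tepsin (chr11:120098732-120098851, minus strand), shown because each held 3 copies of CCAAT, marked in capitals as CCAAT or, on the other strand, ATTGG.
3110082I17Rik: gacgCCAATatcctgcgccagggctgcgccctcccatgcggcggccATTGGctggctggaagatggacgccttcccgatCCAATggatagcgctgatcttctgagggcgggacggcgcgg
Tepsin: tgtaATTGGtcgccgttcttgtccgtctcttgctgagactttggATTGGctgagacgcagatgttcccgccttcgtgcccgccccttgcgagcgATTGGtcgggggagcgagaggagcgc

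The peak lists differed widely in size, with 43399, 67074 and 111327 peaks in CabZ Het A to C and 46070, 19160 and 29600 in CabZ KO A to C. Between 2193 and 2325 peaks of each library lay in the regions of all 6, which was 2.13% of the chromosome 1 to 19 peaks of CabZ Het C and 12.3% of those of CabZ KO B. Of the 4310 regions with peaks of 5 libraries, 42.8%, the largest share, lacked a peak of CabZ KO B, 22.5% of CabZ KO C, 22.4% of CabZ Het A and 0.998% of CabZ Het C. Leaving out CabZ KO B gave 3592 regions in the other 5 libraries, leaving out CabZ KO C gave 2718 and leaving out CabZ Het A gave 2702.

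Most of these regions were weak in every library. The fold enrichment given with each peak is the number of fragments at its summit over the library's genome-wide background, with 1 added to both. The highest fold in a region had a median of 4.53, 4.73 and 5.28 in CabZ Het A to C. In CabZ KO A to C this median was 5.62, 4.95 and 4.92. The lowest fold called in a library was 2.64 to 3.60. The median fold of all peaks of a library ran from 3.52 in CabZ Het C to 4.50 in CabZ KO B. In every library the median of the highest folds in these regions lay above that of all its peaks. The medians in these regions rest on few fragments, between 9.0 at a summit in CabZ KO C and 17.0 in CabZ Het C. Taking each region's weakest library, 1694 regions (95.7%) were at a fold of 5 or less, 65 were between 5 and 10, and 11 were above 10. Regions of 6 and of 5 libraries had the same median fold in their weakest library with a peak (3.94), a median fold of 6.40 and 5.85 in their strongest, and a median length of 3370 and 2593 bp.

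A region of all 6 libraries was often a chain of neighbouring peaks, not 1 shared peak. The length ranged from 505 to 49693 bp, with quartiles of 2464 and 4586 bp, and 22 regions were longer than 10 kb. A region held a median of 7 peaks, and 669 held exactly 1 peak of each library. At least 1 base was covered by peaks of all 6 libraries in 803 regions (45.4%), over a median of 299 bp, and no base was in the other 967 (54.6%). The longest region ran over Mroh2a (chr1:88220575-88270267, 49693 bp, 57 peaks), a gene listed at 0.0235 ± 0.0120 FPKM (SD, n = 4) in CabZ Het GV oocytes. The next longest lay at Sfi1 (16726 bp), near Mn1 (16042 bp), at Mtmr14 (14041 bp) and in Hhat (13874 bp).

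**Figure D1:**
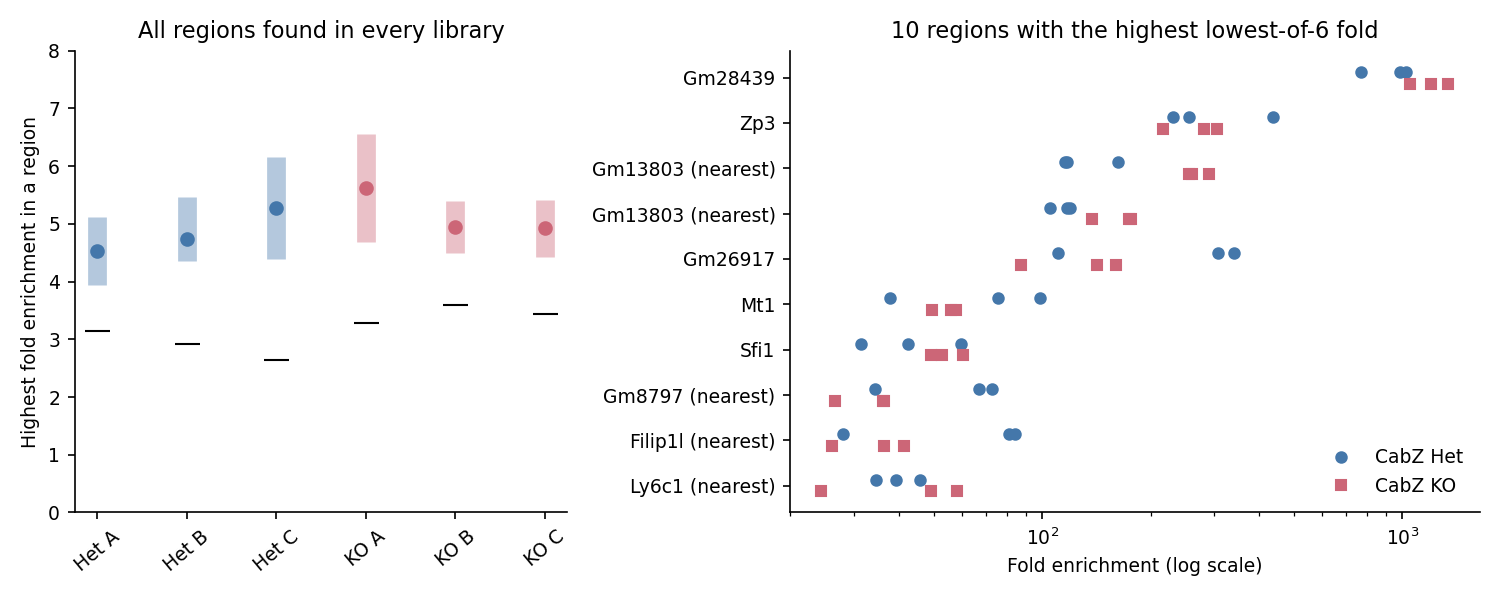
Left, the highest fold enrichment in each of the 1770 regions by library, as the median (point) and quartiles (bar), with a dash at the lowest fold of any peak called in that library. Right, the fold enrichment in each of the 6 libraries (log axis) at the 10 regions whose weakest library was highest, with circles for CabZ Het and squares for CabZ KO; all 10 lie above 20 in every library, while the medians on the left lie between 4.53 and 5.62.

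The 10 regions with the highest fold in their weakest library stood far above the rest, and several lay on sequence that is present in many copies. The highest was chr1:24611528-24614232, over 5 unprocessed pseudogenes (Gm28439, Gm10222, Gm28438, Gm28437 and Gm10925), at a fold of 1021, 983 and 767 in CabZ Het A to C and 1051, 1203 and 1343 in CabZ KO A to C. Of the 31-base words in this region, 97.7% also occur in the mitochondrial genome, and no other region of the 1770 held such a word. Reads from the nuclear copy and from mitochondrial DNA or RNA cannot be told apart there, although the authors removed reads mapped to the mitochondrial genome and reads without a unique place.

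The region at Zp3 was the second highest. It spanned chr5:135973031-135983500, over the end of Ssc4d and the start of Zp3, with a fold of 256, 231 and 438 in CabZ Het A to C and 305, 216 and 282 in CabZ KO A to C. The bases covered in all 6 libraries ran from 135973652 to 135980097, 6446 bp that end 2 bp before the annotated start of Zp3 at 135980099. A peak began between 135973647 and 135973652 in 5 libraries (at 135973031 in CabZ KO B) and ended at 135980097 in CabZ Het A and CabZ KO C. In the other 4 libraries the peak reached into Zp3, to 135980343, 135980524, 135982836 and 135980549 in CabZ Het B, CabZ Het C, CabZ KO A and CabZ KO B. Every animal carried a transgene with the Zp3 promoter in front of Cre, and reads of the transgene and of the Zp3 locus cannot be told apart.

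Other strong regions lay on repeats or on ribosomal RNA sequence. A pair of regions close to each other on chromosome 2, chr2:98662234-98662979 and chr2:98666238-98667331, lay far from any gene of the table (nearest Gm13803, 713 and 717 kb) and were 66.6% and 81.6% repeat-masked. The first had a fold of 117, 105 and 119.6 in CabZ Het and 138, 174 and 176 in CabZ KO libraries, and the second of 162, 116 and 117 against 261, 256 and 291. At both, every CabZ KO library lay above every CabZ Het library. The region chr17:39842992-39848842 held the lincRNAs Gm26917 and Gm42418 and the ribosomal RNA gene CT010467.1, with a fold of 111, 307 and 340.1 in CabZ Het and 160.2, 142 and 87.6 in CabZ KO libraries, which overlapped.

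Mt1, which encodes a metal-binding metallothionein, had the next region in rank. At chr8:94178849-94180956 the fold was 75.6, 37.8 and 98.8 in CabZ Het and 55.7, 49.5 and 57.6 in CabZ KO libraries, and the bases shared by all 6 covered 94179304 to 94180490, most of the gene body. The groups overlapped. The other regions of the top 10 lay over Sfi1 (chr11:3183826-3200551, fold 31.5 to 60.4), in Filip1l (chr16:57391120-57391819, 26.1 to 84.2), 109.5 kb from Gm8797 (chr3:5860320-5860824, 26.6 to 72.7) and 36.7 kb from Ly6c1 (chr15:75085496-75087047, 24.4 to 58.1). The next region in rank, over the oocyte gene Elobl and its neighbour Coil (chr11:88963095-88971097), was the first that was even across libraries, at 12.6, 11.3 and 11.4 in CabZ Het and 12.2, 11.7 and 10.8 in CabZ KO.

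Between the genotypes the regions differed little. The log2 ratio of the mean fold, CabZ KO over CabZ Het, had a median of 0.06 over the 1770 regions, with 5% of regions below -0.35 and 5% above 0.44. In 156 regions (8.81%) every CabZ KO library lay above every CabZ Het library, in 69 (3.90%) every one lay below, and in 1545 the groups overlapped. Regions of fewer libraries lack a fold in some library, so that no share over all regions can be set beside these counts. The folds rest on few fragments, and whether the counts exceed those of chance was not tested. Only 2 regions were above a 2-fold difference of the means, the region chr2:98666238-98667331 (log2 1.05) and chr11:3171639-3173170 inside Sfi1 (log2 1.29), where the fold was 11, 10.9 and 9.68 in CabZ Het and 28.6, 22.5 and 26.6 in CabZ KO. None was lower by more than 2-fold in CabZ KO. Since a peak was required in every library, a region closed in 1 genotype could not enter this count.

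The regions were spread unevenly over the chromosomes. Chromosome 5 held 266 (175 per 100 Mb) and chromosome 1 held 316 (162 per 100 Mb), against 12 on chromosome 18 and 4 on chromosome 19 (6.51 per 100 Mb). The peaks of all libraries were uneven too, but the share of a chromosome's merged regions that were in all 6 libraries still went from 0.115% on chromosome 19 to 1.78% on chromosome 5. The densest megabase was 191 to 192 Mb of chromosome 1 with 18 regions, followed by 128 to 129 Mb of chromosome 10 and 122 to 123 Mb of chromosome 14 with 13 each. Neighbouring regions were otherwise far apart, with a median gap of 290.1 kb, and 101 of 1751 gaps (5.77%) were shorter than 10 kb. A region lay inside the span of 1041 genes, most often the very long annotated gene Gm20388 (26 regions), Gse1 (6) and Clybl (5).

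The more libraries a region was found in, the more often it lay at a promoter. A TSS is taken here from the coordinates in the CabZ GV expression table, and a region was counted at a TSS when any of its bases lay within 500 bp. Of the 1770 regions 276 did (15.6%, exact 95% binomial interval 13.9 to 17.4), against 2.75%, 6.15%, 8.87%, 10.4% and 12.2% of regions found in 1 to 5 libraries. Bases within 500 bp of a TSS made up 0.695% of chromosomes 1 to 19. The interval covers counting error only, and regions on 1 chromosome are not independent.

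Length moved with this share. The median length was 623 bp for regions in 1 library, and 1178, 1640, 2089, 2593 and 3370 bp for 2 to 6. By the position of the strongest summit, which does not grow with length, 131 regions of all 6 libraries (7.40%) lay within 500 bp of a TSS, against 1.94%, 4.19%, 5.78%, 6.50% and 6.50% in 1 to 5 libraries. By the midpoint of the region 5.65% did.

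Most regions were not at promoters. Gene bodies beyond 500 bp of a TSS held 803 (45.4%), and 691 (39.0%) lay outside the genes of the table, against 41.6% and 55.6% of regions found in 1 library. The median distance to the nearest TSS was 16.4 kb, against 40.6 kb for regions in 1 library, and 13.8% were over 100 kb away, against 29.3%. The farthest lay 2261 kb from Gm7004 on chromosome 14, and the next were nearest to Tmtc2 (1052 kb), Gm48972 (861 kb), Grm7 (796 kb) and Gpc5 (786 kb). Against the larger GENCODE M21 annotation, 358 regions (20.2%) were within 500 bp of a TSS.

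**Figure D2:**
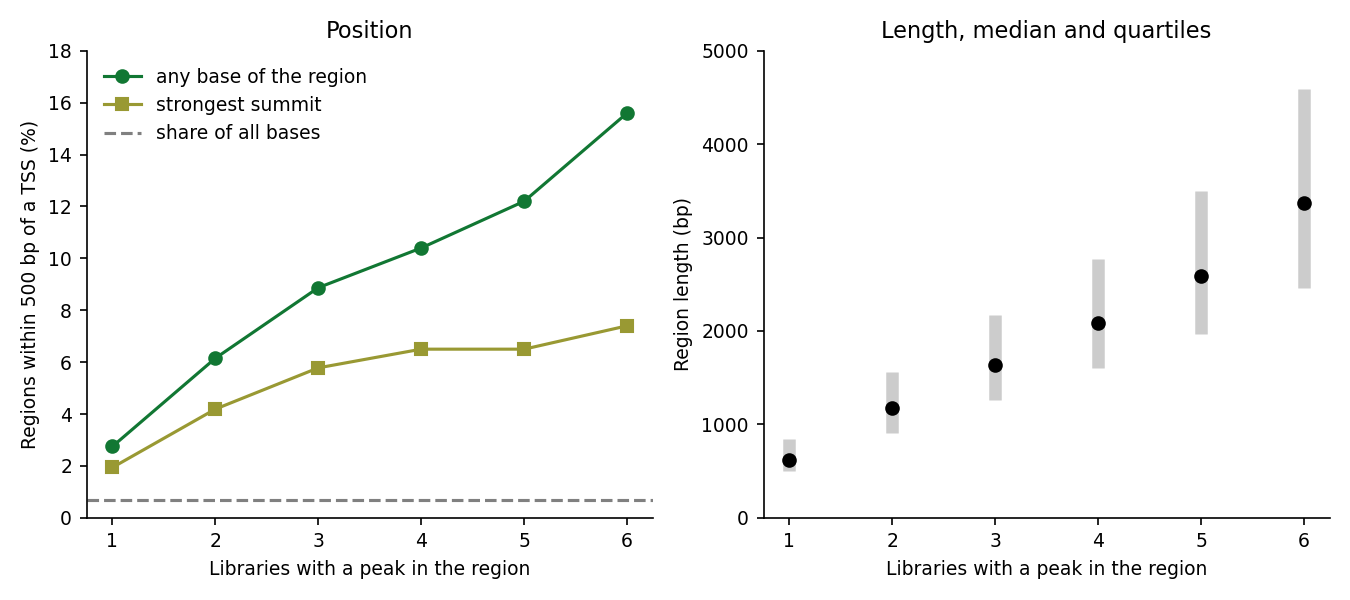
Left, the percentage of regions within 500 bp of a TSS by the number of libraries with a peak in the region, counted by any base (circles) or by the strongest summit (squares); the dashed line is the share of all bases that lie within 500 bp of a TSS, 0.695%. Right, region length in bp as median and quartiles; both the share at a TSS (2.75% to 15.6%) and the median length (623 to 3370 bp) rise with the number of libraries.

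Away from promoters, the 2 E-boxes CAGCTG and CACCTG were, of the letters looked at, those whose share differed most between the summits of these regions and their flanks. Windows reached 150 bp to each side of the strongest summit, and summits over 500 bp from a TSS were taken. CAGCTG (its own reverse complement) was found in 18.1%, 25.3%, 30.0%, 35.3%, 37.7% and 40.6% of such regions found in 1 to 6 libraries. Among the 1639 regions of all 6 libraries with the summit over 500 bp from a TSS it was found in 40.6%, against 16.8% and 16.6% of equally long windows 1000 bp to the left and right. In regions of 1 library it was in 18.1% at the summit and 12.3% and 12.5% beside it. GC content rose as well, from a median of 44.9% at such summits of 1 library to 48.5% at those of 6, and its part in the E-box share was not tested.

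The same excess at the summit stood in each way of dividing the regions. It was in 43.2% of the regions with bases shared by all 6 libraries and in 38.5% of those without, and in 39.7% of those with 1 peak per library. Where at most 50% of the window was repeat-masked, it was in 38.2% at the summit and in 15.5% and 16.4% beside it. Taking each library's own summits, 30.2% to 40.5% of windows in these regions held the letters, against 20% to 27% at the library's other peaks.

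Of the other E-boxes, CACCTG, read as CAGGTG from the other strand and looked at after the values for CAGCTG were known, was in 45% of distal summits against 25.1% and 23.4% beside them. The E-box CACGTG, the site of Myc and Usf factors, was not in excess, at 4.70% against 5.37% and 4.21%. Some E-boxes were less frequent at the summits than beside them. CACATG was in 20.1% against 25.1% and 25.3%, CAAATG in 14.5% against 18.5% and 18.1% and CATATG in 4.70% against 7.69% on both sides. CAACTG lay above its flanks, at 18.4% against 14.0% and 16.2%, and CAATTG slightly, at 5.00% against 3.78% and 4.70%. Neither lay above both flanks where at most 50% of the window was repeat-masked. There CAACTG was in 14.5% against 13.6% and 15.2%, and CAATTG in 3.74% against 3.49% and 4.41%. CAAGTG (18.6% against 18.8% and 17.3%) and CAGATG (23.5% against 24.1% and 22.8%) were even. The letters CAATTA, also looked at after other values were known, were in 19.1% against 11.5% and 10.9%, but in 12.2% against 10.6% and 10.1% where at most 50% of the window was repeat-masked. The letters CCACNAGG of the Ctcf core were in 7.75% against 4.51% and 5.19%. In the windows at most 50% repeat-masked they were in 5.82% against 4.82% on both sides. TATAAA went the other way, at 12.9% against 19.7% and 20.1%, and CCAAT was even, at 34.8% against 35.3% and 35.6%. The homeodomain letters TAATTA (8.36% against 8.11% and 8.18%), the AP-1 site TGANTCA (8.97% against 8.66% and 8.48%) and the nuclear receptor site AAGGTCA (5.61% against 6.28% and 6.96%) also lay near their flanks. AGATAAG of GATA factors was in 2.44% against 3.48% and 4.09%. TGACGTCA of Creb1, GCATGCGC of Nrf1 and GCCATNTTG of Yy1 were each in under 1% of these summits. Matches were counted on both strands. They describe the letters of the reference and say nothing of which factor is bound.

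At promoters CCAAT was more frequent in these regions than at other TSS windows. Of the 131 regions with the summit within 500 bp of a TSS, 57.3% held CCAAT or ATTGG at the summit, against 40.5% and 35.9% of windows 1000 bp to the left and right, 34.0% of the TSS summits of regions found in 1 library and 42.9% of those found in 5. Windows centred on the TSS of all genes of the table, and not on a summit, held it in 36.5%. In the 250 bases upstream of the TSS the difference was smaller. CCAAT was there in 43.7% of genes with a region of all 6 libraries at the TSS and 35.0% of all genes, and CAGCTG in 16.5% and 13.6%. The GC box GGGCGG was in 51.9% of the 131 summits, in 12.2% and 8.40% beside them and in 47.5% of all TSS windows. The ETS letters CCGGAAG were in 16.0% of the summits and 13.6% of all TSS windows, and CAGCTG was in 28.2% and 18.4%. These summits were GC-rich, with a median GC content of 59.5% and an observed over expected CpG ratio of 0.68, the same as the 0.68 of all TSS windows, whereas regions away from a TSS had a ratio of 0.16.

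**Figure D3:**
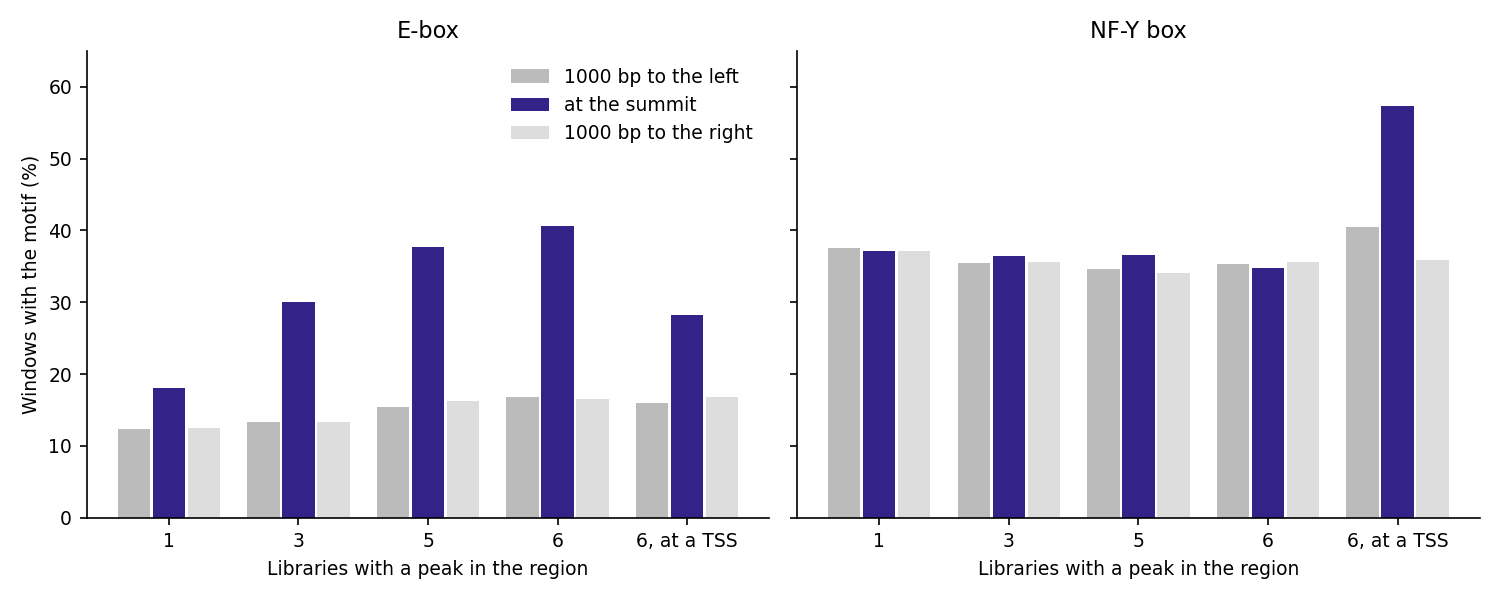
Percentage of windows with the E-box (left) or the NF-Y box, CCAAT (right) at the strongest summit (dark) and in windows 1000 bp to either side (light), for regions over 500 bp from a TSS found in 1, 3, 5 and 6 libraries and for regions of 6 libraries with the summit at a TSS. The E-box share at distal summits rises from 18.1% to 40.6%, and the NF-Y box stands above its flanks at TSS summits of 6 libraries, with 57.3%.

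Genes with such a region at the TSS were more often expressed than genes without one, but many were close to silent. There were 334 such genes of 18302 on chromosomes 1 to 19 (1.82%), at 275 regions, of which 53 held more than 1 gene. At 154 of the 334 genes the strongest summit of such a region also lay within 500 bp of the TSS. At the others only another part of the region did. The summit lay 2956 bp from the TSS of Zp3 and 4071 bp from that of Slc23a3. Of the 334 genes, 248 (74.3%) were protein coding against 74.4% of the table. Expression is given in FPKM per kb of gene span, introns included, a unit that for the CabZ line was inferred from the deposited values. In CabZ Het GV oocytes 157 of the 334 (47.0%) reached 1 FPKM, with a median of 0.873 FPKM (0.792 to 0.880 in the 4 libraries, and 0.691 to 1.03 in the 4 CabZ KO libraries). Genes with no region of any library at the TSS reached 1 FPKM in 26.0% and had a median of 0.177. The values at 4 libraries (47.4%, median 0.884) and 5 libraries (45.9%, 0.747) were like those at 6, so that the level did not rise further with the last libraries.

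Read the other way, the share of genes with a region of all 6 libraries grew with expression. It was 1.21% of genes under 0.1 FPKM, 1.67% from 0.1 to 1 and 2.34% from 1 to 10. From 10 to 100 it was 3.03%, and at 100 FPKM or more 4.50% (13 of 289 genes). These 13 include Zp3, Gm28437 and Gm10925, at regions whose reads cannot be told apart from those of the transgene or of mitochondrial sequence. Still, 75 of the 334 (22.5%) lay under 0.1 FPKM, and 60 reached 10 FPKM. ZH Het oocytes, from a different line and with no ATAC-seq here, gave a like picture, with 44.1% of these genes at 1 FPKM or more and a median of 0.732. In 2-cell embryos the figures were 41.9% and 0.583 in CabZ Het and 31.4% and 0.341 in the parthenogenetic embryos from GFP RNA-injected oocytes.

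Of the 17 gene lists looked at, that of oocyte-expressed genes had the largest share with such a region. Of its 59 genes 10 (16.9%) had a region of all 6 libraries at the TSS, against 1.82% of all genes and 2.62% of the genes at 1 FPKM or more, and 15 (25.4%) had one within 10 kb of the TSS, against 5.14% of all genes. The 10 were Zp3, Bcl2l10 (an egg-specific Bcl2 relative), Dppa3 (Stella, which protects maternal methylation), Tle6, Padi6, Zar1l, Figla, Bub1b (a spindle checkpoint kinase), Dnmt1 (the maintenance DNA methyltransferase) and Eif4e1b (an oocyte cap-binding protein). Within 10 kb but not at the TSS were Ccnb1, Cpeb1, Gpr3, Npm2 and Wee2. Of the 59, 55 were at 1 FPKM or more in CabZ Het, with a median of 74.9, while of 15 granulosa and cumulus cell genes 2 were, with a median of 0.0446, and none of these had a region at its TSS.

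Apart from Zp3, the regions at the oocyte genes were as weak as most. At Tle6 (chr10:81598893-81601950) the fold was 4.72, 5.46 and 6.45 in CabZ Het and 10.3, 5.85 and 5.41 in CabZ KO libraries. At Padi6 (chr4:140740121-140745380) it was 4.33, 5.82 and 8.80 against 6.09, 4.95 and 4.43. At Figla (chr6:86014883-86019374) it was 3.94, 6.91 and 5.28 against 5.62, 5.85 and 4.43. In all 3 the genotypes overlapped. The 120 bases before the TSS held CAGCTG or CACCTG in 5 of the 10 genes and in 25 of all 59 oocyte genes (42.4%), against 21.9% of the 334 genes and 15.6% of all genes, as in the sequences of Zp3, Tle6 and Padi6 above. At least 3 copies of CCAAT were in 1.80% of the 334 and 0.852% of all genes.

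The other lists held such a region at between 0% and 7.32% of their TSSs, on small counts. None of 72 RNA polymerase II and general transcription factor genes, 48 splicing factor genes, 35 promoter-binding transcription factor genes, 22 2-cell-stage genes, 30 imprinted genes, 11 Hox genes, 17 genes of other tissues and 119 olfactory receptor genes had such a region at the TSS. Some lists held a few: 2 of 75 ribosomal protein genes (Rpl5 and Rpl17), 2 of 34 proteasome genes (Psmd1 and Psmd4), 4 of 68 DNA repair genes (Chek2, Msh3, Ogg1 and Ung), 3 of 41 spindle and cohesin genes (Cenph, Fzr1 and Stag3), 1 of 75 chromatin enzyme genes (Cbx5) and 1 of 50 histone genes (Hist4h4). Most ribosomal protein genes did have a region of some library at the TSS (56 of 75, Rpl5 and Rpl17 included). So did 51 of the 72 polymerase and transcription factor genes, in each case of fewer than 6 libraries.

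The Hira complex and its partners were among the genes without such a region. None of the 15 genes of the list had one: the best region at Hira was of 2 libraries, at Cabin1 of 3, at Ubn1 of 1 and at the H3.3 gene H3f3b of 2, and Ubn2 and Asf1a had no region. Cabin1 itself was at 0.101, 0.0891, 0.159 and 0.128 FPKM in CabZ Het and 0.0482, 0.0231, 0.0125 and 0.0129 in CabZ KO libraries, so that every KO library lay below every Het library. Per kb of its long span these values are low, and the deposited values do not show the deleted exon on its own.

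**Figure D4:**
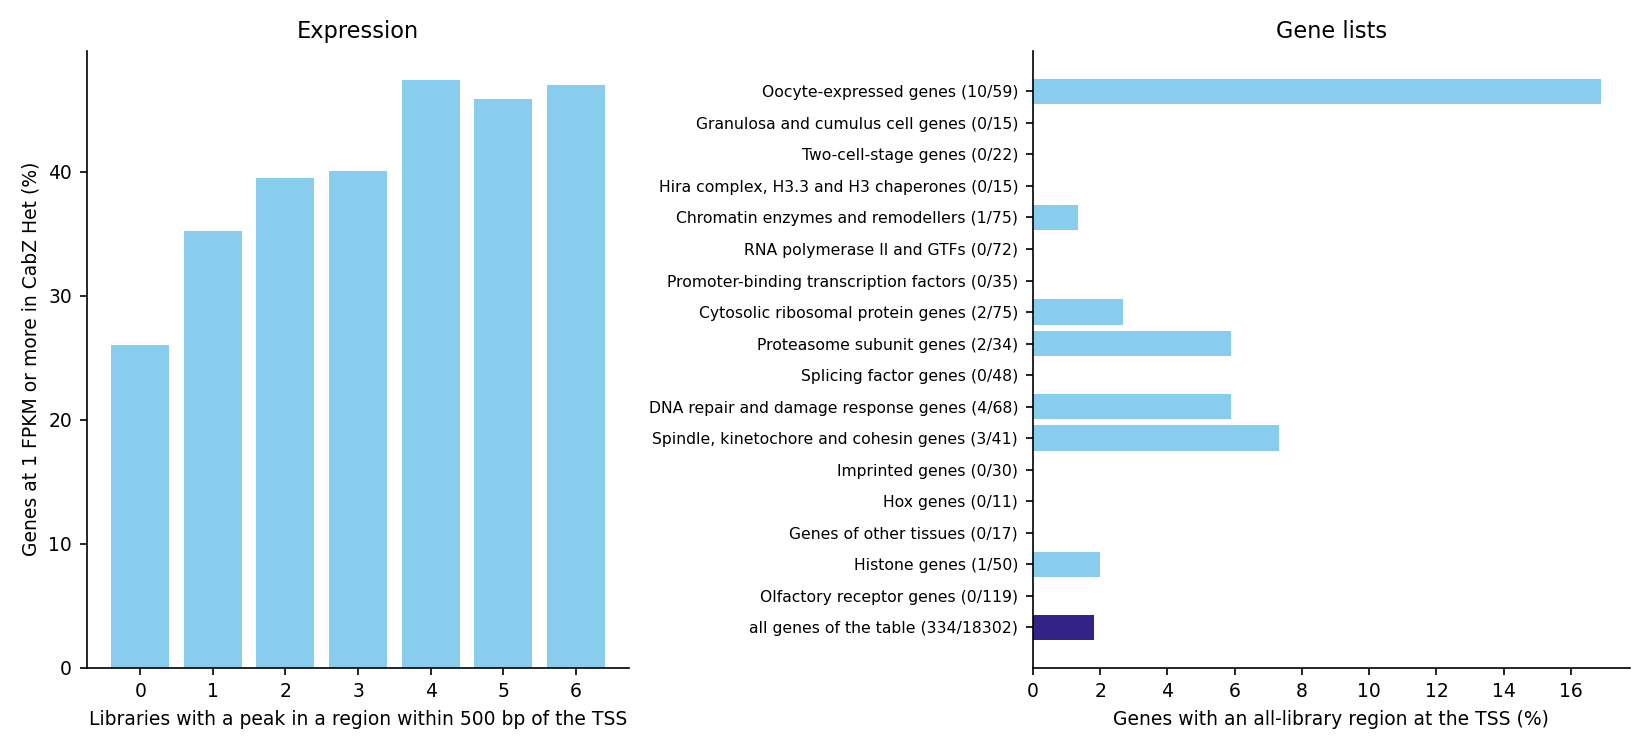
Left, the percentage of genes at 1 FPKM or more in CabZ Het GV oocytes, by the number of libraries of the best region within 500 bp of the TSS; it is 26.0% without a region and 47.0% with a region of all 6. Right, the percentage of each gene list with a region of all 6 libraries at the TSS, with the counts in brackets; the oocyte-expressed list is at 16.9% and all genes of the table (dark) at 1.82%.

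The 10 most highly expressed of the 334 genes were Elobl, Bcl2l10, Dppa3, Mt1, Zp3, Gm36958, Gm28437, Gm10925, Oas1d and Oas1e, and none was called between CabZ KO and CabZ Het GV oocytes. Elobl, a relative of the elongin B gene, was at 3329, 3687, 3089.5 and 3564 FPKM in CabZ Het and 3061, 2758, 3640 and 3464 in CabZ KO. Zp3 was at 692, 769, 393 and 469 FPKM against 579.5, 516, 361 and 430 (log2 difference -0.27 ± 0.23, SE). Mt1 was at 549, 562, 452 and 605 against 653, 610.2, 924 and 819.7 (0.46 ± 0.15). For Mt1 every CabZ KO library was higher, but limma with Benjamini-Hochberg adjustment gave an adjusted p of 0.080, and for Elobl and Zp3 the groups overlapped. Gm10925 (-0.90, limma adjusted p = 0.018) and Gm28437 (-0.85, limma adjusted p = 0.024) passed the adjusted p with no overlap between the groups, but changed by less than 2-fold.

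To ask whether genes with these regions changed when the complex was lost, limma was fitted to log2(FPKM + 1) of every gene whose mean reached 1 FPKM, and a call needed both a p under 0.05 after Benjamini-Hochberg adjustment and a change of over 2-fold. In CabZ GV oocytes 3 of 160 tested genes with such a region were called (1.88%), 2 higher and 1 lower in CabZ KO, where 2.90% of all 6339 tested genes were called, 2.07% higher and 0.836% lower. The median log2 change was -0.02 for the 160 and -0.02 for all. Leaving out CabZ KO replicate 4 raised the count to 6, and leaving out any other library gave 2 to 4.

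Slc23a3, a member of the ascorbate transporter family, rose the most. It was at 3.61, 5.52, 3.5 and 4.0 FPKM in CabZ Het and 11.8, 20.7, 17.7 and 18.3 in CabZ KO GV oocytes (log2 change 1.80 ± 0.18, limma adjusted p = 0.00030), with no overlap. The processed pseudogene Gm5566 was at 4.17, 6.28, 5.69 and 5.06 against 10.9, 11.5, 14.0 and 11.5 (1.05 ± 0.13, limma adjusted p = 0.00085). Gm10222, of the mitochondrial-like region of chromosome 1, fell from 25.9, 15.4, 27.6 and 15.9 to 7.20, 5.30, 6.84 and 10.5 (-1.38 ± 0.23, limma adjusted p = 0.0042). The fold enrichment of the regions at Slc23a3 (5.51, 5.46 and 5.28 in CabZ Het, 5.62, 4.50 and 5.41 in CabZ KO) overlapped between genotypes. So did that at Gm5566, with 3.54, 3.64 and 4.40 against 4.21, 4.50 and 5.90. Gm5566 and Gm10222 may share reads with near-identical copies elsewhere, and their values are uncertain.

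**Figure D5:**
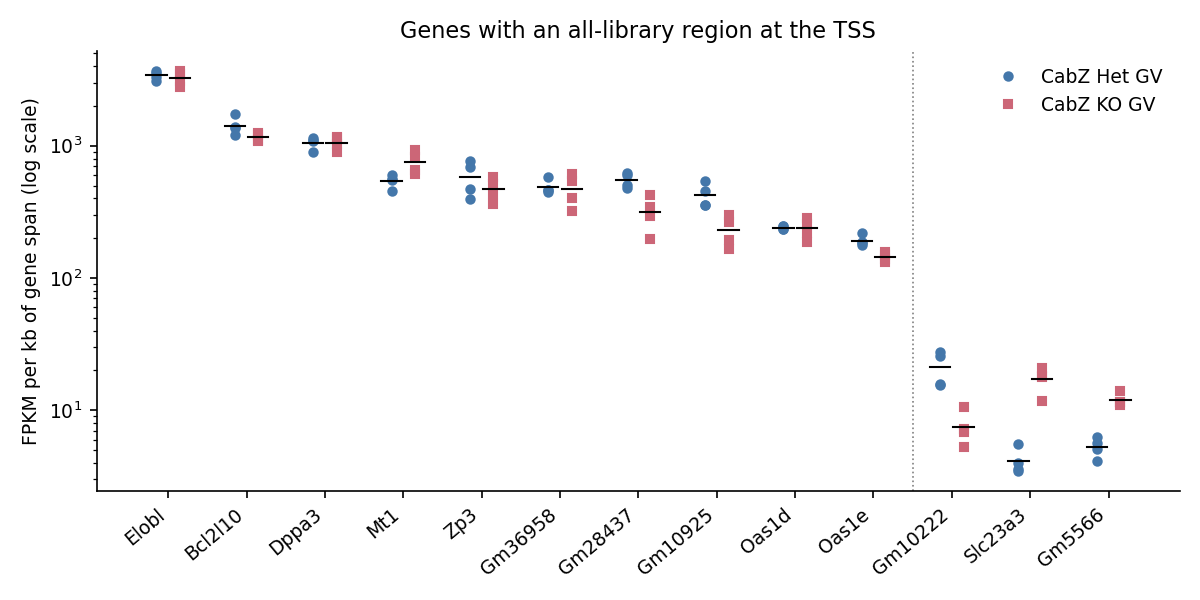
FPKM per kb of gene span (log axis) in each CabZ Het (circles) and CabZ KO (squares) GV library, with the mean as a line, for the 10 most highly expressed genes with a region of all 6 libraries at the TSS (left of the dotted line) and for the 3 called genes (right). Slc23a3 and Gm5566 lie higher in all 4 CabZ KO libraries and Gm10222 lower in all 4.

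In the ZH line more of all genes were called than in CabZ GV oocytes, and the difference between the lines was not tested. In ZH GV oocytes 31 of 147 tested genes were called (21.1%), 12 higher and 19 lower in ZH KO. Of all 5792 tested genes 17.7% were called, 10.5% higher and 7.20% lower. Among the 19 were Gm28439, Gm10222, Gm28437 and Gm10925, all of the mitochondrial-like region of chromosome 1. Their reads cannot be told apart from mitochondrial ones, so they are not separate observations. The median log2 change was -0.17 for the 147 and -0.04 for all genes. It was alike, at -0.18, -0.18 and -0.24, for genes whose best region was of 3, 4 and 5 libraries. Lower calls outnumbered higher ones at 4 (47 against 27) and 5 libraries (22 against 16), but not at 3 (42 against 45). Slc23a3 rose here too, from 2.63, 2.08, 3.15 and 3.78 FPKM to 21.7, 23.1, 23.7 and 24.0 (2.65 ± 0.15, limma adjusted p = 2.8e-06). Prnd, the gene of the prion-like protein doppel, was at 0.0136 to 0.0280 FPKM in ZH Het and at 1.72, 4.78, 3.05 and 1.95 in ZH KO (1.86 ± 0.22), and the unclassified transcript Gm43461 at 0.0782 to 0.787 against 6.28 to 11.9 (2.93 ± 0.22).

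Bub1b and Kif23 were among the genes that fell in ZH KO, while of the listed spindle, kinetochore and cohesin genes with such a region 2 were tested (Fzr1, Cenph) and 0 were called. Bub1b was at 13.9, 14.0, 14.8 and 10.9 FPKM in ZH Het and 2.40, 5.11, 2.37 and 2.51 in ZH KO (-1.85 ± 0.20, limma adjusted p = 1.0e-04), and Kif23, a kinesin of cytokinesis, at 9.50 to 11.1 against 2.31 to 2.93 (-1.62 ± 0.12). Gm36958 went from 410.5 to 674 FPKM in ZH Het to 48.2 to 351 in ZH KO (-1.85 ± 0.52). Of the 10 oocyte genes above, all tested, 4 fell (Bub1b, Tle6 by 1.30, Bcl2l10 by 1.19 and Dnmt1 by 1.09 on the log2 scale) and 1 rose. That was Figla, from 5.66, 5.57, 7.29 and 8.06 to 16.5, 12.5, 13.1 and 15.1 FPKM (1.01 ± 0.15, limma adjusted p = 5.6e-04). Of all tested genes 17.7% were called in ZH GV oocytes, and 22.9% of those at a mean of at least 5 FPKM. The listed oocyte genes without such a region were not set beside these 10. None of the 10 was called in CabZ GV oocytes, where 2.90% of all were. For Tle6 the groups overlapped, at 84.8 to 118 FPKM in ZH Het and 16.3, 108, 48.3 and 25.2 in ZH KO, where replicate 2 was also high for Padi6 (106 against 28.0 to 59.8 in the others) and Bub1b. The Tle6 call (limma adjusted p = 0.042) held at a log2 change of -1.78 (limma adjusted p = 0.0017) without ZH KO replicate 2 and was lost without any 1 of the other 7 libraries (limma adjusted p from 0.053 to 0.11). Bcl2l10, Dnmt1 and Figla kept an adjusted p under 0.05 without any 1 library, although their log2 changes reached -0.99, -0.98 and 0.94, under the 2-fold limit. Whether the 2 lines differ at these genes was not tested. Mt1 was split within ZH Het, at 1.79, 1.56, 569.7 and 632 FPKM against 903, 909, 1167 and 925 in ZH KO, and was not called (4.60 ± 1.78, limma adjusted p = 0.053).

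In CabZ 2-cell embryos the called share was that of all genes, with a different split. Of 143 tested genes 53 were called (37.1%), 32 higher and 21 lower in CabZ KO, where 37.4% of all 7798 tested genes were called, 16.9% higher and 20.4% lower. Among the 21 lower were Gm10222, Gm28439 and Gm10925, all of the mitochondrial-like region of chromosome 1. The median log2 change was 0.08 for the 143 and -0.11 for all. Prim1, the small DNA primase subunit, fell from 5.94, 10.9, 12 and 6.34 FPKM to 0.748, 1.55, 1.89 and 0.855 (-2.09 ± 0.27, limma adjusted p = 0.00037). The lincRNA Gm36307 rose from 6.47, 1.62, 2.62 and 4.01 to 17.9, 38.5, 32.2 and 44.7 (2.91 ± 0.37, limma adjusted p = 0.00034), and Gm47525 was at 0 to 4.71 FPKM in CabZ Het and 7.15 to 20.4 in CabZ KO (2.90 ± 0.55). With no overlap either, the mitochondrial-like Gm10222 (784 to 1232 against 163 to 277) and Gm28439 (202 to 298 against 41.5 to 75.3) fell and Gm26917, beside the ribosomal RNA gene, (1.35 to 6.89 against 27.7 to 73.3) rose, and reads of their many copies cannot be told apart.

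In 2-cell embryos from Zscan4d RNA-injected oocytes, compared with GFP RNA-injected ones, limma called 0 of 100 tested genes with such a region, against 1.44% of all 4293 tested genes (0.0233% higher and 1.42% lower). At an unadjusted p under 0.05 there were 20 of the 100 and 850 of all 4293, and no other tool was run. The largest log2 differences were those of Gm28438 (-1.04), Mt1 (-0.90) and Gm32460 (-0.89) on 1 side, and of Oas1d (1.02), 2510046G10Rik (0.77) and Rnf114 (0.73) on the other, none past the threshold.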

How the data were processed

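Peak lists of the 6 ATAC-seq libraries and 4 expression tables were used. Per the study's methods the authors aligned ATAC-seq reads with Bowtie2 2.3 to mm10, removed duplicate, mitochondrial and non-uniquely mapped reads, and called peaks per library with MACS2 without local background. The deposited peak files give a fold enrichment (a ratio to background), a score and -log10 p- and q-values. Fragment numbers were worked back from the folds (100.0% whole within 0.02); the read depth of the libraries is not given in the sources used here. RNA-seq reads were aligned by the authors with STAR 2.5.3a to GRCm38. The deposited CabZ tables appear to hold a score, a value divided by gene span 2 times, scaled to equal sums with 0.01 added. This was worked out from the values and is not stated by the authors. The CabZ values were brought back to FPKM on that reading. The ZH and Zscan4 tables hold FPKM deposited per kb of gene span with 0.01 or 0.001 added, which was subtracted. RNA read depth is not known from these values.

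The members, gene lists and motifs were chosen with earlier results of these data known. Peaks were merged and placed with Python 3.11.15, numpy 2.4.6, pandas 2.3.3 and pysam 0.24.0. For a region, the highest fold of a library's peaks was taken. Gene coordinates came from the CabZ GV table; of 18876 symbols also in GENCODE M21, 96.7% had the same coordinates. Each gene was tied to the region of most libraries within 500 bp of its TSS. limma 3.58.1 in R 4.3.3 was fitted within each table to log2(FPKM + 1) at a mean of at least 1 FPKM, without a replicate block, and tested on simulated data. A fold change on this scale understates the change of low genes.

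Named were the 10 regions highest in their weakest library, the 10 most expressed genes at such regions, the called genes (up to 10 a direction in CabZ GV, 3 a direction in the other contrasts), genes of the 17 lists, the Hira complex and the 5 longest and 5 farthest regions. Alternatives changed the overlap, q-value, distance, filter, pseudocount, scaling, length and libraries. Those on the strongest summit, shared bases and GENCODE M21 were added after seeing the data. Chromosomes X and Y are not among the regions.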

Additional observations from a re-analysis of the deposited data

Results flagged for a closer look

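Of 58 groups of 4 libraries looked at for the named genes, 4 held a library far from its others, and chance gives this in about 1 of 20 groups. Gm36958 was at 579 FPKM in CabZ Het GV replicate 3 and at 449.7 to 461 in the other 3. Bub1b was at 5.11 FPKM in ZH KO GV replicate 2 and at 2.37 to 2.51 in the others. Gm32460 was at 3.77 FPKM in GFP 2-cell replicate D, against 2.25 to 2.48, and 2510046G10Rik was at 0.71 FPKM in the same library, against 1.23 to 1.28.

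Among 52 pairs of contrasts compared, 2 genes had every CabZ KO library on 1 side of CabZ Het in GV oocytes and on the opposite side in 2-cell embryos. The log2 change of Mt1 was 0.46 in GV oocytes and -1.13 in 2-cell embryos, and that of Oas1e was -0.41 and 1.13. The difference between the stages was not tested.

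Outside chromosomes 1 to 19, a peak of all 6 libraries was also found in 35 of 8475 merged regions of chromosome X (0.413%), in 1 of 3 of chromosome Y (33.3%) and in 7 of 69 of unplaced contigs (10.1%).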

How the results depend on the processing

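The number of regions was 1770. Peaks with a -log10 q of at least 5 gave 28 and of at least 10 gave 15, and 803 held a base covered in all 6 libraries; leaving out 1 library gave 1668 to 3592. The share within 500 bp of a TSS, 15.6%, became 39.3% and 53.3% at the stricter q, 5.65% by midpoint, 7.40% by strongest summit and 20.2% with GENCODE M21, and 13.7% to 14.5% without 1 library. The cause of these moves was not tested beyond what each alternative leaves out.

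The median level, 0.873 FPKM, was 5.20 among genes at 1 FPKM or more, 3.74 per exon length and 1.00 with the strongest summit at the TSS, and 0.832 to 0.880 without 1 library. Without a fold change threshold the called genes were 24 in CabZ GV oocytes, 70 in ZH GV oocytes, 89 in CabZ 2-cell embryos and 0 after Zscan4d RNA, where 13.9%, 51.9%, 56.1% and 1.79% of all tested genes were called. On the values as deposited the CabZ counts were 1 and 5, in place of 3 and 53, beside 0.142% and 4.08% of all genes. The log2 change of Slc23a3 in CabZ GV oocytes was then 0.11, in place of 1.80. A mean of at least 5 FPKM gave 33 of 62 in 2-cell embryos, beside 51.0% of all genes. Leaving out 1 library gave 2 to 6, 26 to 36, 46 to 57 and 0.

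With a replicate block the counts were 3, 32, 53 and 0, and Tle6 in ZH GV oocytes was not called (limma adjusted p = 0.052, and 0.13 with no filter on low values). The numbers do not pair the libraries: correlations of same-numbered libraries ran from -0.41 to 0.40. In all, 73 of 96 alternatives kept their value within the limits set, and no log2 change of a named gene reversed.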
